A study of Mus musculus with 2 samples.

Results

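Synaptic vesicles carry a small set of abundant membrane proteins, and 10 of the genes behind that set are described here as they were measured in layer 5 of the mouse cerebral cortex. They are the synaptophysin family members Syp and Synpr, the synaptogyrins Syngr1 and Syngr3, the SV2 genes Sv2a, Sv2b and Sv2c, the synapsins Syn1 and Syn2, and the vesicle GTPase Rab3a. The genes were taken by name from a list of vesicle proteins, with no measured value in the rule. Earlier results of these data were known when the list was chosen. All 10 were found among 43346 gene rows, of which 21474 were protein-coding genes.

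The study holds 2 RNA-seq libraries from areas of layer 5 cut out by laser capture, each about 8000 square microns and entered in the labels as 50 cells. The mouse was a wild-type male aged 8 months, of strain C57Bl6 (B6NCrl in the source name), with no treatment or transgene named. The libraries are numbered as biological replicates 1 and 2 but share 1 donor, so they were read as areas of 1 animal, and every SD is the spread between those areas. There is 1 group and no contrast of conditions, so no test across animals was possible, and an exact two-sided sign-flip test on 2 libraries cannot go below p = 0.5.

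Synaptophysins and synaptogyrins are tetraspan proteins of the vesicle membrane, and synaptophysin binds the fusion protein synaptobrevin. SV2 proteins resemble transporters, SV2A is the binding site of the antiepileptic drug levetiracetam, and the family serves botulinum neurotoxins as receptors. Synapsins coat the outside of the vesicle, hold vesicles in a reserve cluster near the release site and let go when kinases phosphorylate them, while Rab3a cycles between a vesicle-bound form with GTP and a free form with GDP and helps vesicles dock.

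Several members give rise to transcripts that encode different proteins, and for 3 of them, Syn1, Syn2 and Syngr1, stretches of the coding sequences are shown first. Each stretch is in the sense direction from the GENCODE M21 annotation of GRCm38, with the last 30 shared coding bases in lower case and the first bases that are not shared in capitals. The pair of Syn1, on the minus strand of chromosome X, shares its first 1985 coding bases. Syn1-201 encodes 706 residues, synapsin Ia, and holds 38 extra bases before the sequence of Syn1-202 resumes in another frame. In that frame Syn1-202 ends after 670 residues, synapsin Ib. The capitals of Syn1-201 after those 38 bases are thus the same bases that open the capitals of Syn1-202. Both stretches begin at base 20862528 and cross an intron, ending at base 20861550 for Syn1-201 and base 20861544 for Syn1-202.
Syn1-201: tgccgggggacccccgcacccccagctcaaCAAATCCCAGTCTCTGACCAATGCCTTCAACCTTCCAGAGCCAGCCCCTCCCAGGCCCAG
Syn1-202: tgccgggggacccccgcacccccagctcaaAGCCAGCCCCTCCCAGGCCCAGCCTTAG

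The pair of Syn2, on the plus strand of chromosome 6, shares 1372 coding bases, after which Syn2-202 reads on in the same exon and Syn2-201 is spliced to later ones. The stretches begin at base 115274227 and end at base 115278160 for Syn2-201 and base 115274316 for Syn2-202. Syn2-201 encodes 586 residues, synapsin IIa, and Syn2-202 encodes 479 residues, synapsin IIb.
Syn2-201: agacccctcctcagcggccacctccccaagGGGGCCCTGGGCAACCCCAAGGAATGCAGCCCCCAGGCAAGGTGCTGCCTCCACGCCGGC
Syn2-202: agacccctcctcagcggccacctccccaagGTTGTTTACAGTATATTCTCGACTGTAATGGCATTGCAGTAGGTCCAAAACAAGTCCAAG

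Syngr1, on the plus strand of chromosome 15, has a pair that shares 483 coding bases before the ends differ, giving 234 residues in Syngr1-201 and 191 in Syngr1-202. Both stretches begin at base 80111715 and cross an intron, ending at base 80115914 and base 80113225.
Syngr1-201: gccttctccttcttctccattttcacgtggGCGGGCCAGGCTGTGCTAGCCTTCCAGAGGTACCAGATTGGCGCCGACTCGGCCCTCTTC
Syngr1-202: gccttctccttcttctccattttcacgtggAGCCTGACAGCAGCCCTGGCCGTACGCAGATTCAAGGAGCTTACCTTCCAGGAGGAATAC

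In Sv2b the coding sequence of 2052 bases, 683 codons, is identical in both transcripts and the starts differ. Sv2b-201 begins at base 75308379 and Sv2b-202 at base 75309262 of chromosome 7, minus strand, 883 bases apart. The 120 bases before each RefSeq start (GRCm38.p6) are shown because the share of each start differed between the areas. They lie at chr7:75308387-75308506 for Sv2b-201 and at chr7:75309263-75309382 for Sv2b-202.
Sv2b-201: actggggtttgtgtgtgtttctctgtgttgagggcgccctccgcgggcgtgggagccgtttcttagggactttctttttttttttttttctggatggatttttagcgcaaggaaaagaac
Sv2b-202: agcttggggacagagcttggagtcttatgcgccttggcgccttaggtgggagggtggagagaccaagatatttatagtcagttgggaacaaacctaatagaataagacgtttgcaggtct

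Every member was present in both areas. Levels are given in TPM, an abundance per transcript length scaled to the same sum in each library, which allows genes to be compared. All 10 members had 1 TPM or more in both areas, where 51.5% of protein-coding genes did. By mean TPM 8 of them stood in the top 10% of protein-coding genes and 4 in the top 5%. The list was chosen with earlier results known, so these counts describe the chosen genes only. They summed to 1132 TPM in the first area and 1718 TPM in the second, a mean of 1425 ± 414 (SD, n = 2), of which Rab3a held the largest single part.

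**Figure D1:**
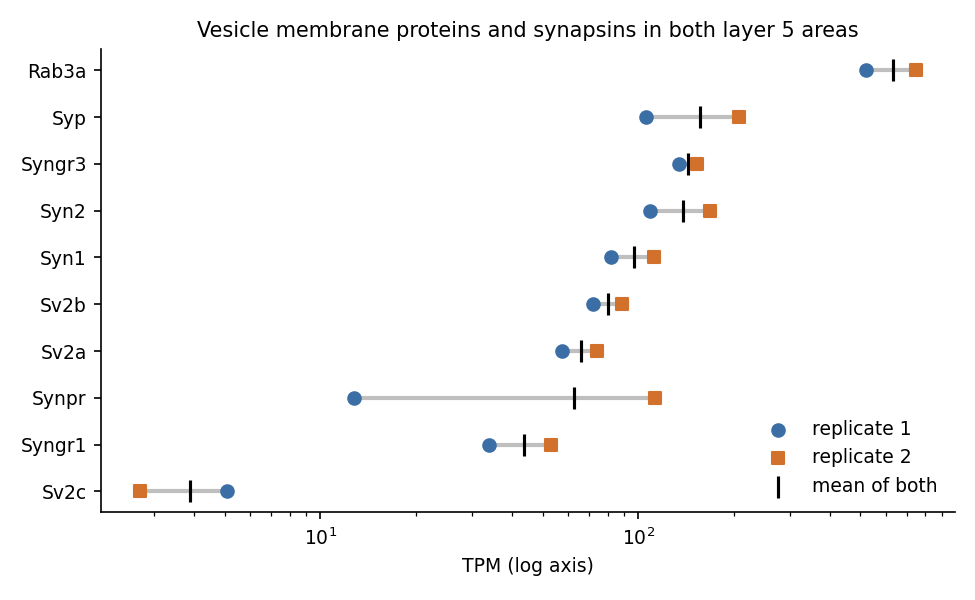
TPM (log axis) of the 10 members in replicate 1 (circles) and replicate 2 (squares), with the mean as a tick and a line joining the areas. Rab3a lies apart at 520.0 and 747 TPM, Sv2c lies below all others, and Synpr spans the widest interval, from 12.7 to 113 TPM.

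Syp encodes synaptophysin and lies on chromosome X from 7638471 to 7653256, plus strand. It had 106 TPM from 5670.4 expected counts in replicate 1 and 207 TPM from 11472 in replicate 2, a mean of 156 ± 71.8 (SD, n = 2). Replicate 2 was higher by 1.96 times in TPM, and the authors' own intervals, 101 to 107 TPM and 199 to 207 TPM, do not overlap. This was not particular to Syp. The intervals of every other member were apart as well, including Syngr3 at 128 to 135 and 146 to 153 TPM. Syp was the only member without whole counts. The non-coding antisense gene Gm14703 shares 875 exon bases with Syp on the opposite strand and was assigned 1.56 and 18.95 counts, and with these the counts of Syp add up to the whole numbers 5672 and 11491.

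Synpr encodes synaptoporin, the closest relative of synaptophysin, known for its high level in the mossy fibre terminals of the hippocampus. The gene spans 13284780 to 13616340 of chromosome 14, plus strand. Synpr had 12.7 TPM from 669 counts in replicate 1 and 113 TPM from 6149 counts in replicate 2, a mean of 62.8 ± 70.8 (SD, n = 2). Its SD exceeded its mean, and replicate 2 was 8.86 times higher in TPM. On counts per total count the fold was 8.47, with an exact 95% Clopper-Pearson interval of 7.82 to 9.19 that covers counting error only. Synpr was thus the 1 member of 10 more than 2-fold apart on log2(TPM + 1), on which folds of low genes come out too small. Of the 11841 protein-coding genes whose mean was at least 1 TPM, 10.3% were that far apart. Of the 4422 whose mean was at least 20 TPM the share was 2.62%, and the members' count there was again 1, out of 9. A count of 1 in 10 is the share found over all genes, while the single value of Synpr was larger than that of 99.7% of these more abundant genes.

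The family as a whole was therefore made up differently in each area. Of the summed TPM of Syp and Synpr, Synpr held 10.8% in replicate 1 and 35.3% in replicate 2. Syp exceeded Synpr 8.30 times in the first area and 1.84 times in the second. Sypl, a relative found in many tissues, had 21.9 and 31.3 TPM, and Sypl2, known from skeletal muscle, had 0.16 and 0.01 TPM from 4 counts and 1.

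Cell class markers also differed between the areas, and their values belong beside Synpr. In bulk tissue fewer cells of a type and less RNA per cell cannot be told apart. Of 14 GABAergic markers with a mean of at least 1 TPM, 8 were higher in replicate 2 and 6 in replicate 1, and 7 were more than 2-fold apart, 4 of them higher in replicate 2. The 15 matched markers summed to 4090.2 TPM in the first area and 5898 TPM in the second, and without Sst, left out after seeing the data, the order was the opposite, with 3896 and 3039 TPM for the other 14. Sst, the peptide somatostatin, had 194 and 2859 TPM, Crh had 0.04 and 101 TPM, and Npy had 27.2 and 61.5 TPM. The opposite order was found for Pvalb with 918 and 145 TPM, Tac1 with 72.0 and 3.23 TPM and Gad1, which makes GABA, with 438 and 65.2 TPM. Cck at 2355 and 2530 TPM and Gad2 at 23.9 and 31.8 TPM lay closer together. In each area Cck alone made up the largest part of the sum without Sst. Cck was higher in replicate 2, however, so the lower sum there does not follow Cck and lies mostly in Pvalb and Gad1. None of the 15 was at 0 in either area, and the part of any cell class in the difference of Synpr was not tested.

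Syngr3 and Syngr1, the neuronal synaptogyrins, differed less between the areas than the synaptophysins. Syngr3, on chromosome 17 from 24685092 to 24689955, minus strand, had 134 TPM from 5385 counts and 153 TPM from 6344, a mean of 143 ± 13.2 (SD, n = 2). Its areas lay closest together of the 10 genes, with replicate 2 higher by 1.14 times. Syngr1, on chromosome 15 from 80091334 to 80119501, plus strand, had 34.0 TPM from 2663 counts and 53.1 TPM from 4458, a mean of 43.5 ± 13.4 (SD, n = 2), and replicate 2 was higher by 1.56 times. Syngr3 exceeded Syngr1 3.94 times in replicate 1 and 2.88 times in replicate 2. Syngr2, the form of other tissues, had 3.96 and 1.68 TPM, and Syngr4 was listed at 0 in both.

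Within the SV2 family the areas had nearly the same make-up. Sv2b, on chromosome 7 from 75114894 to 75309262, minus strand, had 72.0 TPM from 8239 counts and 88.7 TPM from 10415, a mean of 80.3 ± 11.8 (SD, n = 2). Sv2a, on chromosome 3 from 96181151 to 96195521, plus strand, had 57.4 TPM from 5227 counts and 74.2 TPM from 6997, a mean of 65.8 ± 11.9 (SD, n = 2). Sv2b held 53.6% of the family's TPM in replicate 1 and 53.5% in replicate 2, and Sv2a held 42.7% and 44.8%.

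Sv2c, the form known from the basal ganglia, was the low member. It lies on chromosome 13 from 95954594 to 96132577, minus strand, and had 5.08 TPM from 303 counts and 2.71 TPM from 202. By TPM Sv2c was the only member higher in replicate 1, where scaling to the spike-in RNA placed Syngr3 there too, at a log2 ratio of 0.023. On counts per total count Sv2c was 1.63 times higher, with an exact 95% Clopper-Pearson interval of 1.36 to 1.95. It held 3.78% of the family's TPM in replicate 1 and 1.64% in replicate 2. The more distant relative Svop had 23.7 and 37.4 TPM, and Svopl had 0 and 0.67 TPM.

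**Figure D2:**
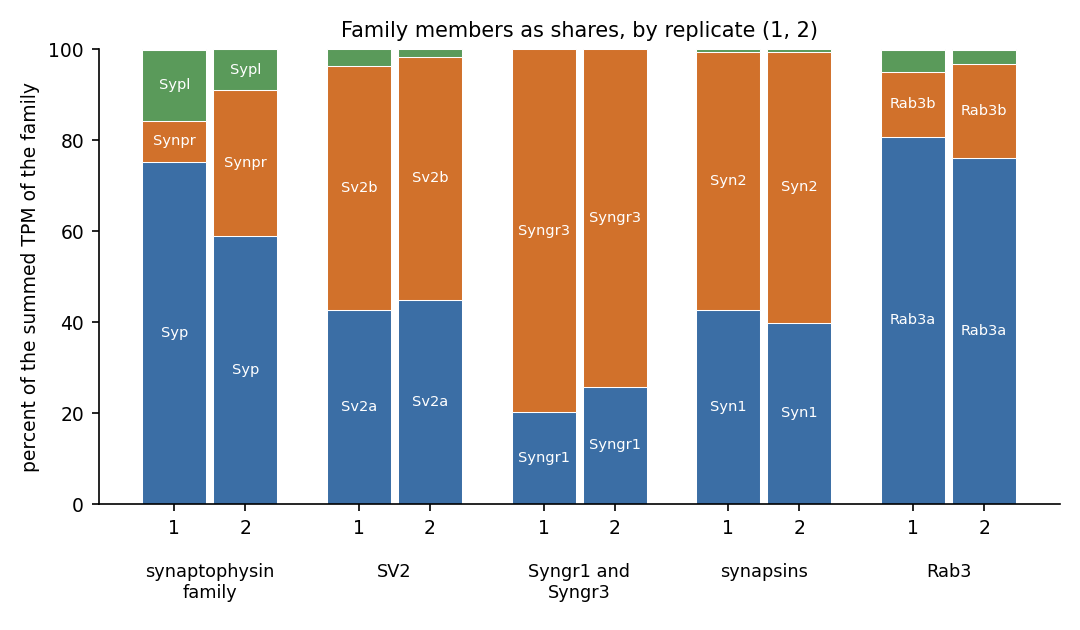
Percent of the summed TPM of each family (0 to 100) held by each gene, with replicate 1 and replicate 2 as neighbouring bars. Sv2b holds 53.6% and 53.5% of its family in the areas, while Synpr holds 9.07% and 32.1% of the synaptophysin family with Sypl and Sypl2 counted in.

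Syn2 and Syn1 encode the synapsins of most mature synapses, and Syn2 was the higher in both areas. Syn2, on chromosome 6 from 115134902 to 115282006, plus strand, had 109 TPM from 8624 counts and 168 TPM from 13680, a mean of 138 ± 41.5 (SD, n = 2). Syn1, on chromosome X from 20860511 to 20921004, minus strand, had 82.1 TPM from 5518 counts and 112 TPM from 7780, a mean of 97.0 ± 21.1 (SD, n = 2). Syn2 held 56.7% of the TPM of all 3 synapsins in replicate 1 and 59.6% in replicate 2, so the order held in each area although the means of Syn2 and Syn1 differ by less than their spread. Syn3, the synapsin known from early development, had 1.16 and 1.62 TPM, or 0.603% and 0.576% of the family.

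Genes of the opposite strand touch both synapsins, and the strand setting is not given. Both synapsins had whole counts in both areas, so their counts show no sign of reads divided with these genes. Timp4 lies within Syn2 and shares 90 exon bases with it, at 302 and 651 counts of its own. Araf, at 7810.3 and 6786 counts, shares 9 exon bases with Syn1.

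Rab3a, on chromosome 8 from 70754679 to 70758677, plus strand, was the most abundant member. It had 520.0 TPM from 14320 counts and 747 TPM from 21315, a mean of 634 ± 161 (SD, n = 2), which ranked 153 among the 21474 protein-coding genes. Rab3a exceeded Syp 4.92 times in replicate 1 and 3.61 times in replicate 2. Mpv17l2, at 579 and 831 counts, shares 29 exon bases with it on the opposite strand.

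Of the other Rab3 genes, Rab3b had 92.3 and 203 TPM, more than 2-fold apart (2.14 times on counts per total count, exact 95% Clopper-Pearson interval 2.04 to 2.25), and Rab3c had 30.4 and 31.7 TPM. Rab3d, known from secretory tissues, had 1.59 and 0.91 TPM. Rab3a therefore held 80.7% of the Rab3 TPM in replicate 1 and 76.1% in replicate 2, and Rab3b held 14.3% and 20.6%.

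In the order of mean TPM, Rab3a was followed by Syp, Syngr3, Syn2, Syn1, Sv2b, Sv2a, Synpr, Syngr1 and Sv2c. Of the 9 pairs of neighbours 6 differed by less than their spread, namely all except Rab3a over Syp, Sv2b over Sv2a and Syngr1 over Sv2c. Only 5 of the 9 pairs stood in the same order in both areas. The order among Syp, Syngr3 and Syn2 changed, with Syngr3 the highest of those in replicate 1 and Syp the highest in replicate 2. Synpr stood below Syngr1 in replicate 1 and above Sv2a, Sv2b and, at 113 against 112 TPM, Syn1 in replicate 2.

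Taken over the list, 9 members were higher in replicate 2 and 1 in replicate 1. Of all protein-coding genes with a mean of at least 1 TPM, 54.0% were higher in replicate 2, and with a mean of at least 20 TPM, 55.6%. The members' median log2 ratio of replicate 1 over replicate 2 was -0.48, against -0.05 for all genes. Scaled to the spike-in RNA, the count of members higher in replicate 2 was 8 while the share over all genes fell to 38.1%, because that scaling shifts the median of all genes to 0.15. Relative to the median gene, the members' median was -0.44 by TPM and -0.42 by the spike-in scaling.

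**Figure D3:**
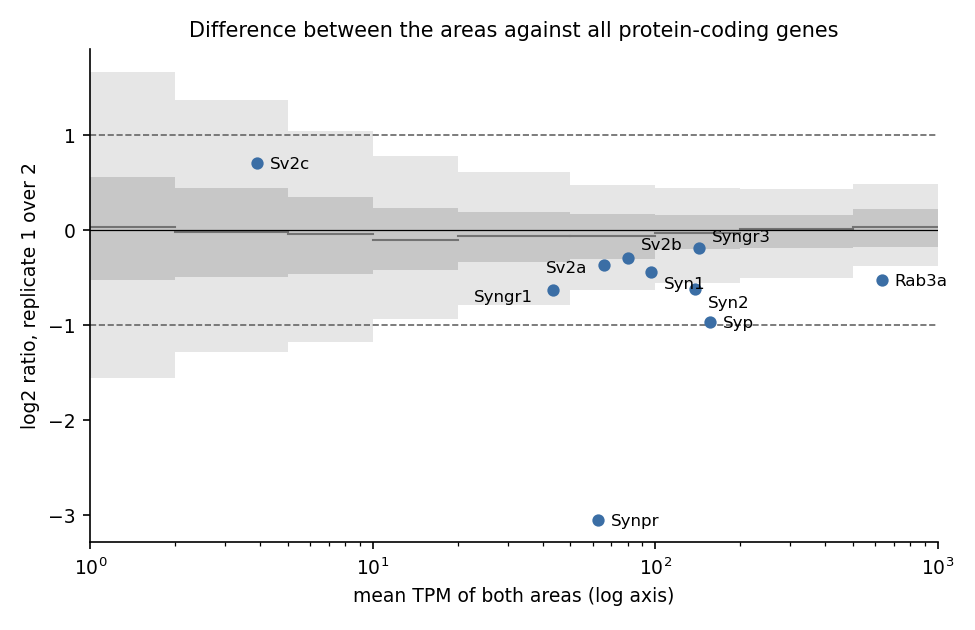
Log2 ratio of TPM + 1 in replicate 1 over replicate 2 against mean TPM (log axis) for the 10 members (points). Bands hold the central 50% and 90% of protein-coding genes in classes of mean TPM, grey lines are class medians and dashed lines mark 2-fold. Synpr at -3.05 lies far below the band, Syp at -0.97 lies just inside the 2-fold line, and Sv2c at 0.71 lies above 0.

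Set against genes of like abundance, in classes of mean TPM chosen after seeing the data, 4 members lay below the central 90% and 6 inside it. In the class from 500 to 1000 TPM the lower bound was -0.37, and Rab3a had -0.52. From 100 to 200 TPM the bound was -0.56, with Syp at -0.97 and Syn2 at -0.62 below it and Syngr3 at -0.19 above it. From 50 to 100 TPM the bound was -0.63, with Synpr at -3.05 below it and Syn1 at -0.44, Sv2a at -0.37 and Sv2b at -0.30 above it. Syngr1, in the class from 20 to 50 TPM with a bound of -0.79, had -0.63, and Sv2c at 0.71 lay under the upper bound of 1.38 in its class.

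The vesicle and synapsin pathways were read from further lists. Of 17 other genes of the vesicle membrane whose mean reached 1 TPM, 14 were higher in replicate 2 and 3 in replicate 1, with a median log2 ratio of -0.40. The proton pump subunit Atp6v0c had 1615 and 2280 TPM, the calcium sensor Syt1 had 377 and 569 TPM, and the pump subunit Atp6v1b2 had 286 and 312 TPM. The gene more than 2-fold apart, named after its values were seen, was the glutamate transporter Slc17a6 with 0.04 and 3.88 TPM.

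Of 12 genes that act on or with Rab3, 9 were higher in replicate 2 and 3 in replicate 1, and the median log2 ratio was -0.24. Rabac1, which binds prenylated Rab proteins, had 593 and 595 TPM, and Syt1 belongs to this list as well. The 1 gene of the list more than 2-fold apart was the exchange factor Rab3il1 with 3.45 and 0.67 TPM, named after its values were seen.

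For the kinases and the phosphatase that act on synapsins, 6 genes of 12 were higher in each area, none was more than 2-fold apart and the median log2 ratio was -0.02. The calcineurin subunits Ppp3r1, with 766 and 818 TPM, and Ppp3ca, with 602 and 508 TPM, led the list.

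Markers of neurons and glia were present in both areas. Of 12 pan-neuronal markers 10 were higher in replicate 2, with a median log2 ratio of -0.22 and a summed level of 9292 and 10608 TPM. Snap25 had 5995 and 6966 TPM, Uchl1 had 835 and 981 TPM, and Stmn2 had 554 and 561 TPM. Of 10 excitatory markers 8 were higher in replicate 2, with a median of -0.31. All 10 layer 5 markers were at 1 TPM or more in both areas, led by Pcp4 with 2922 and 3599 TPM, Rbp4 with 42.1 and 88.2 TPM and Ldb2 with 57.5 and 62.0 TPM. In that list 6 genes were higher in replicate 2 and 4 in replicate 1, and 3 were more than 2-fold apart, Rbp4 higher in replicate 2 and Parm1 and Crym, named after their values were seen, higher in replicate 1. Oligodendrocyte markers were higher in replicate 2 for 10 of 10 genes, summing to 592 and 1163 TPM, and microglial markers were higher in replicate 1 for 9 of 10 genes, summing to 367 and 124 TPM. Of 8 endothelial markers 5 were higher in replicate 1, with a median log2 ratio of 0.57 and sums of 192 and 134 TPM. Of 9 astrocyte markers whose mean reached 1 TPM, 6 were higher in replicate 2, with a median of -0.25, and the 10 listed summed to 1145 and 1463 TPM. Haemoglobin and other erythrocyte genes summed to 16.01 and 586 TPM. None of these lists was at 0 in an area, and their part in the members' differences was not tested.

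**Figure D4:**
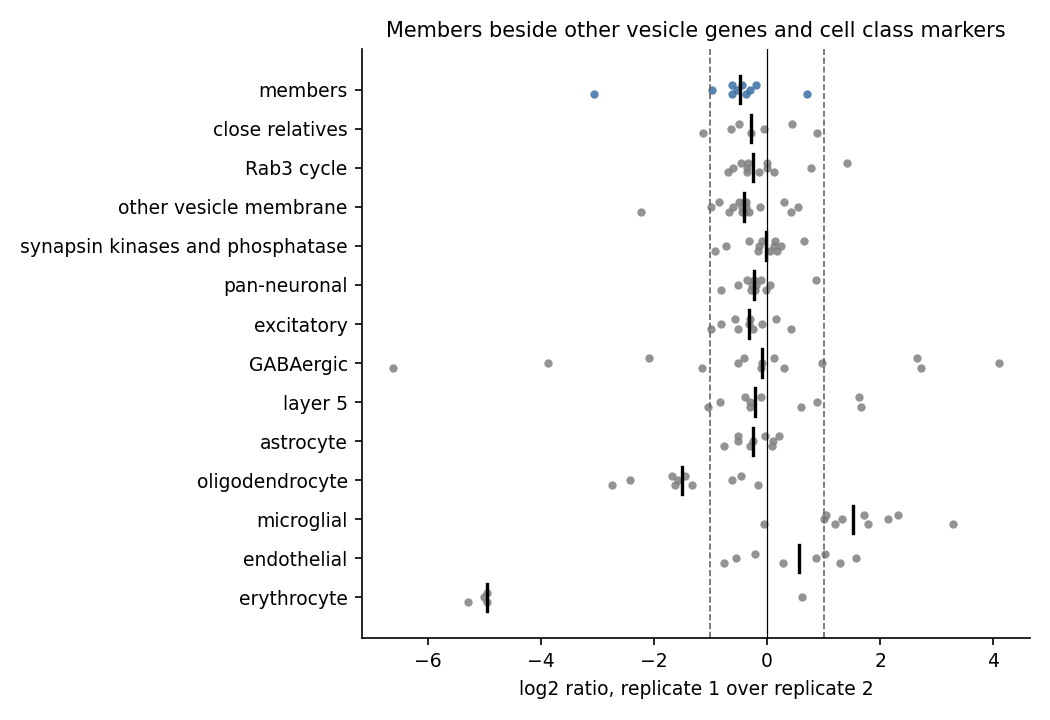
Log2 ratio of replicate 1 over replicate 2 for the members and for each gene of the other lists whose mean reached 1 TPM; black bars are medians and dashed lines mark 2-fold. The members' median is -0.48, the other vesicle membrane genes' median is -0.40, and the GABAergic markers spread to both sides around a median of -0.10.

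The transcript tables give each transcript's percent of its gene's expression. The 10 members are listed with 34 transcripts, of which 17 held 10% or more in either area. The leading transcript was the same in both areas for 10 of 10 members, where 80.0% of 8736 genes with more than 1 transcript and a mean of at least 1 TPM kept theirs. In 2 members, Sv2b and Sv2c, the leading transcript's percent differed by more than 10 points, where 43.3% of genes did, a threshold chosen after seeing the data. The median change was 1.83 points over the members and 7.77 points over all such genes. Of the 10 members, 9 had a mean of at least 20 TPM. No such share was computed for genes of like abundance, so the part of abundance in these contrasts was not tested.

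Both synapsins kept their isoform balance. Syn1-201, synapsin Ia, held 75.3% in replicate 1 and 73.6% in replicate 2, and Syn1-202, synapsin Ib, held 24.7% and 26.4%. In Syn2 the short form led, with Syn2-202, synapsin IIb, at 84.8% and 82.8% and Syn2-201, synapsin IIa, at 15.2% and 17.2%. The leading form differed between the areas by 1.72 points in Syn1 and 2.07 points in Syn2. The deposited length of Syn2-201 is 3343 bases and that in M21 is 2708.

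Syngr1-201, the longer protein, held 86.8% and 91.0%, and Syngr1-202 held 13.2% and 8.60%. Because Syngr1-202 is 819 bases long and Syngr1-201 is 4180, the minor form rests on 69.7 and 73.1 expected counts only. Rab3a-201 held 76.0% and 75.3% and Rab3a-204 held 21.3% and 23.3%. These encode the same 220 residues, and the 4 transcripts with that coding sequence together held 99.8% and 99.9% of Rab3a.

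**Figure D5:**
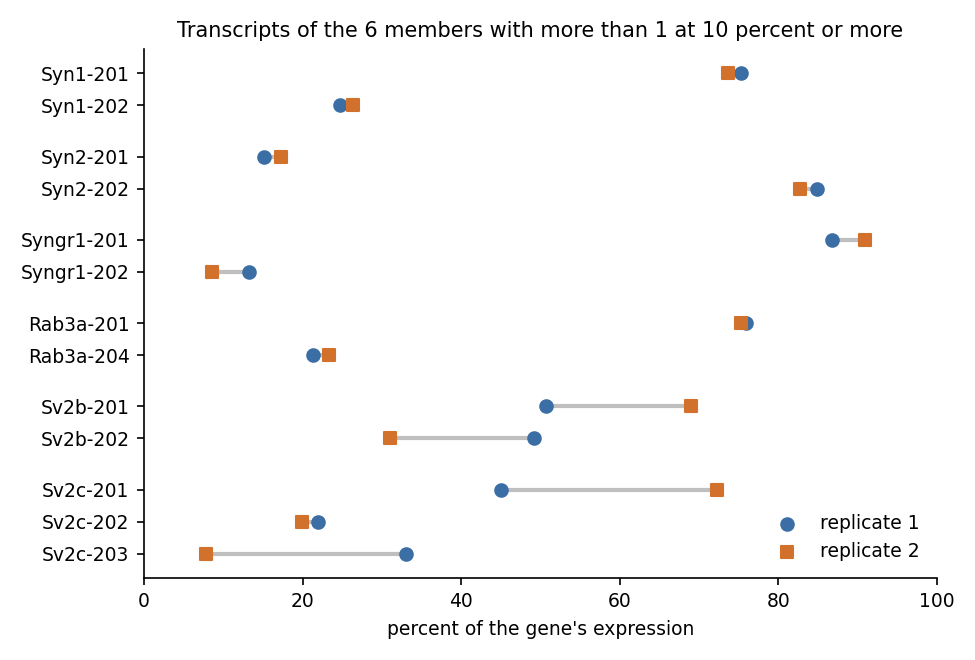
Percent of the gene's expression held by each transcript at 10% or more in either area, for the 6 members with more than 1 such transcript, in replicate 1 (circles) and replicate 2 (squares). Syn1, Syn2 and Rab3a transcripts lie within a few points of each other across the areas, while Sv2b-201 moves from 50.8% to 69.0%.

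The shares of the Sv2b starts differed between the areas. Sv2b-201 held 50.8% in replicate 1 and 69.0% in replicate 2, and Sv2b-202, with the start farther upstream, held 49.2% and 31.0%. In TPM, Sv2b-201 had 36.5 and 61.1 and Sv2b-202 had 35.5 and 27.5. The authors' intervals for Sv2b-201 were 32.1 to 39.8 TPM and 55.2 to 63.7 TPM and did not overlap. Those for Sv2b-202 were 30.5 to 38.0 TPM and 23.1 to 31.0 TPM and overlapped slightly. The protein encoded is the same, and by expected counts the starts were near equal in replicate 1, with 4102 counts for Sv2b-201 and 4137 for Sv2b-202.

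Sv2c transcripts were the least certain of the list. Sv2c-201 held 45.1% and 72.3%, the non-coding Sv2c-202 held 21.9% and 19.9%, and Sv2c-203 held 33.0% and 7.77%. Behind Sv2c-203 are 75.7 and 9.82 expected counts, and the length of Sv2c-201 is 4252 bases in the deposited tables against 9101 in M21. For the other 4 members, Syp, Synpr, Sv2a and Syngr3, 1 transcript held 90% or more in both areas. Synpr-201 held 100% and 98.1%, so the large difference of Synpr between the areas was carried by 1 transcript.

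RefSeq promoter sequences (GRCm38.p6) were matched for 9 members, taking for each the entry nearest to the start of its leading transcript, and were read over the 250 bases before the start. These windows held 8 to 27 CG pairs, where the median of 32851 promoters was 6. The GC box GGGCGG, or CCGCCC on the other strand, was in 7 of 9 windows, those of Syp, Synpr, Sv2a, Sv2c, Syngr1, Syn2 and Rab3a, and in 32.7% of all promoters. The short form of the cyclic AMP element, ACGTCA or TGACGT, was in 2 windows, Syn1 and Rab3a, and in 6.47% of all promoters.

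The full element TGACGTCA, which contains the short form and reads the same on both strands, was in the Syn1 window alone among the 9, and in 1.55% of all promoters. CAGCACC or GGTGCTG, letters of the left side of the RE1 element that the repressor REST binds, was in the windows of Sv2c and Syn1 and in 5.73% of all promoters. The far part of the Syn1 window, chrX:20921059-20921168, minus strand, is shown because it holds both, with CAGCACC and TGACGTCA in capitals. A match describes these letters only and is not a measured binding site.
Syn1 upstream: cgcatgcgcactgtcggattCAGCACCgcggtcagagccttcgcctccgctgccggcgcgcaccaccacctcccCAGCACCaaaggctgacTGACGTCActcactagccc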

How the data were processed

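RNA was measured in 2 layer 5 libraries made with a Smart-seq type protocol and spike-in RNA, per the labels. The deposited gene and transcript tables hold expected counts (estimated reads, divided among features where a read maps to several), TPM scaled by the authors over all features, and posterior mean TPM. The deposited transcript tables also hold each transcript's percent of its gene, and the authors' lower and upper bounds of TPM, recorded here as signal values. The assembly is mm10 and the annotation M4, per the deposited text files, and the program and strand setting are not given in the sources used here. Symbols and coordinates came from GENCODE M21 on the same assembly, in which 42462 of 43346 Ensembl rows had a symbol. Of 139 list symbols 138 were matched, and 7 of the members' 34 transcripts have another length in M21.

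Totals were 26059117 and 28276843 expected counts, of which spike-ins held 7.19% and 7.94%. Reads carry no molecular identifiers, so intervals cover counting error only. Left out were 26248 rows named by a number only, with 20.3 and 5 counts. The libraries are not copies, since chi-square per degree of freedom was 69.5 across the 14131 genes that reach 50 counts in sum.

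Members and lists were chosen with earlier results of these data known. All members, their relatives, the 3 highest genes of other lists, GABAergic markers whose mean reached 20 TPM, and transcripts at 10% or more were named; of the excitatory, glial, endothelial and erythrocyte lists only sums, counts or medians are printed, and some genes that the rule took are left out. Ratios are log2(TPM + 1), replicate 1 over replicate 2, with a pseudocount of 1. TMM factors for CPM were computed on rounded expected counts with edgeR (4.0.16, under R 4.3.3). Python 3.11.15 ran the rest, with scipy 1.17.1, pandas 2.3.3, numpy 2.4.6 and, for figures, matplotlib 3.10.9. A difference sets 1 library against 1, and no p-value across genes was made. The ratio and its counting interval were tested on simulated Poisson counts with known folds. Those counts hold no variation beyond counting error, so the test does not cover differences between areas or animals. Alternatives were a pseudocount of 0.1, CPM, posterior mean TPM, TPM over nuclear genes, TMM and spike-in scaling, other minimums, and leaving out a member or a library.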

Additional observations from a re-analysis of the deposited data

How the results depend on the processing

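Of 70 log2 ratios of members under other scalings, 69 kept their sign. The exception was Syngr3, at 0.023 when scaled to spike-ins. The members' median log2 ratio was -0.42 by CPM and -0.27 scaled to spike-ins, and it lay between -0.52 and -0.44 when each member was left out in turn. The count more than 2-fold apart was 1 in every scaling run and fell to 0 without Synpr. The count higher in replicate 2 was 8 to 9. Summed TPM was 1848 over nuclear genes alone, a scale without spike-ins and mitochondrial genes, and 1132 to 1718 with 1 library left out. All 10 members stayed at 1 TPM or more with either library left out (10 to 10), and 9 reached 5 TPM in both areas. By percent of expected counts, 9 of 10 members had the same leading transcript, the exception being Sv2b. Centring on the median gene and leaving Synpr out of the counts were chosen after seeing the data. No paired analysis was possible because there is 1 group. Depth limits Sv2c, Syn3 and the minor transcripts, and 1 animal limits every statement.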
